A study of Mus musculus with 6 samples.

Results

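The 10 genes described here, Thy1, Vim, Dpt, Pi16, Cd34, Ly6a, Ly6c1, Fap, S100a4 and Npnt, are used to recognise fibroblasts and to tell their subtypes apart. They were chosen by name as identity and subtype markers and were read from the rows with those symbols, 10 of the 55487 genes in the deposited count table. Wild-type C57BL/6 mice gave the primary lung fibroblasts, which were grown in 10% serum and then starved in 0.1% serum for 24 h. The control group then received PBS for 24 h, and the treated group received rmCIRBP, the recombinant mouse form of cold-inducible RNA-binding protein, at 1 µg/mL for the same time. Both groups shared the strain, the starvation and a single sequencing batch. Each group had 3 libraries, numbered as in the labels and called PBS 1 to 3 and rmCIRBP 1 to 3. The labels do not say whether the 3 came from separate animals or cultures, so the spread that the p-values measure is that between libraries and may be technical. Not given in the sources used here were the age and sex of the mice and the passage of the cells.

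Fibroblasts make the collagen scaffold of the lung, and they differ by where they sit. Cells in the adventitia around large vessels and airways are known for Dpt, Pi16, Cd34 and Ly6a, and the same set marks a fibroblast state found in many organs. Alveolar fibroblasts lie in the gas-exchange walls and are known for Npnt, whereas Fap is known from activated fibroblasts in wounds, tumours and fibrosis. CIRBP is an RNA-binding protein that, once released from cells, acts as a danger signal through the receptor TLR4.

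Library totals ran from 12105584 to 14262375 counts, so that 3 counts, the limit a count of 0 allows, stood for 0.210 to 0.248 CPM (counts divided by the library total and scaled in the usual way, so that libraries of different depth can be compared). Such limits cover counting error only. All 10 genes passed the filter on low counts that left 15801 genes for edgeR's quasi-likelihood test, and a gene is said to have risen or fallen where its Benjamini-Hochberg adjusted p over all 15801 was under 0.05. Of all genes tested, 11.5% passed in either direction, 6.74% higher and 4.77% lower with rmCIRBP. Of the 10 markers, 2 fell (Thy1 and Vim) and 0 rose. With edgeR at an unadjusted p under 0.05, 0 were higher and 4 lower. The share of all genes at that unadjusted p was not counted. DESeq2 called 0 higher and 4 lower, and limma voom 0 higher and 3 lower. Over the whole table DESeq2 called 2618 genes and limma voom 1738, against 1818 by edgeR. The PBS and rmCIRBP libraries did not overlap for 3 of the 10 (Thy1, Vim and Fap), against 34.8% of all genes tested. Fold changes were below 0 for 8 of the 10, against 50.8% of all genes, and their median log2 fold change was -0.62 against -0.01 over all genes tested. In bulk RNA, fewer cells of a type and less RNA per cell cannot be told apart.

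**Figure D1:**
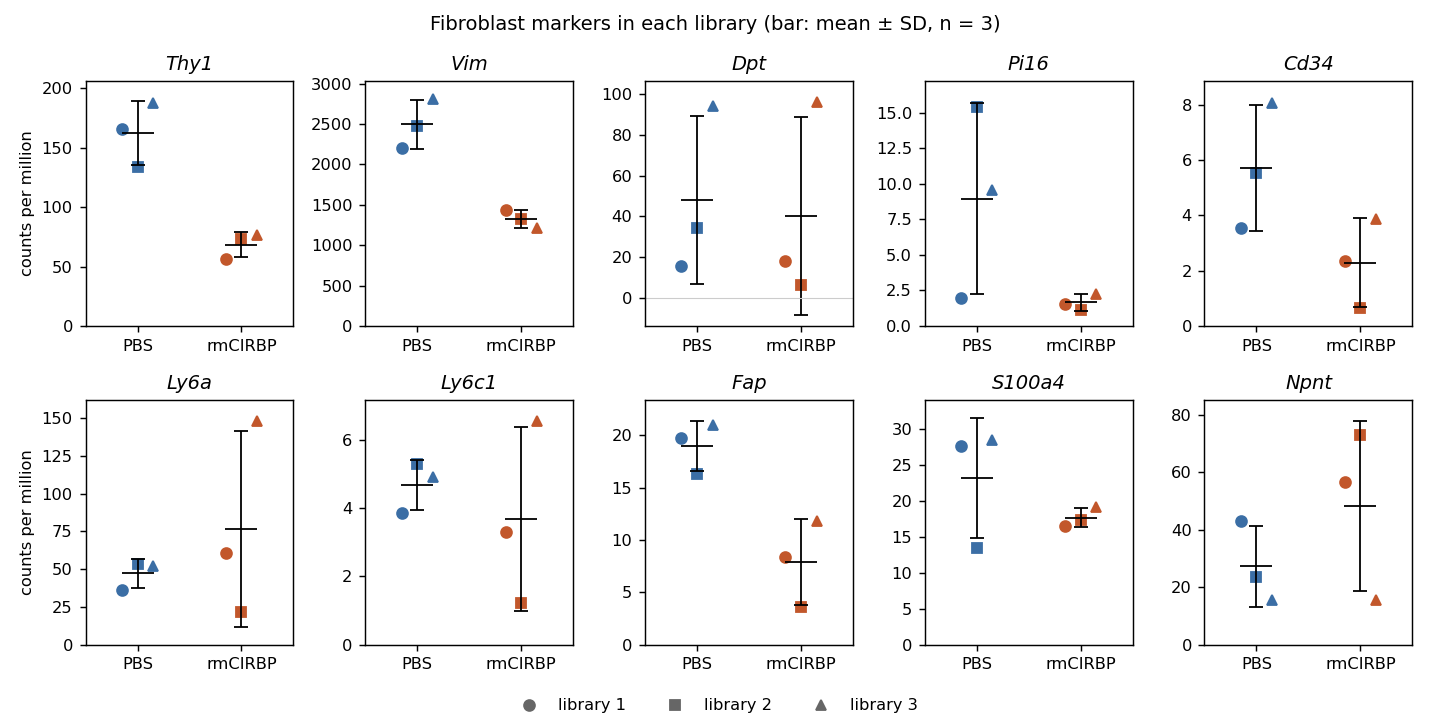
CPM of each of the 10 markers in every library, 1 panel per gene with its own linear scale, with symbols for library 1, 2 and 3 of each group and bars for the mean and SD of 3 libraries. The PBS and rmCIRBP points are separate for Thy1, Vim and Fap, and they overlap for the other 7 genes.

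Thy1 encodes a small glycoprotein held on the cell surface by a lipid (GPI) anchor, widely used to sort fibroblasts (chromosome 9, 44043384 to 44048579, plus strand, GRCm38). It stood at 166, 134 and 188 CPM in PBS 1 to 3 and at 56.2, 73.0 and 76.2 CPM in rmCIRBP 1 to 3. Every rmCIRBP library was below every PBS library, and the lowest PBS value was well above the highest rmCIRBP value. The mean fell from 162 ± 27.1 to 68.5 ± 10.7 CPM (SD, n = 3 each), a ratio of means of 2.37. The log2 fold change was -1.21 ± 0.17 (SE; 95% limits -1.60 to -0.83), with an adjusted p of 0.00420 by edgeR's quasi-likelihood test. Leaving out any 1 library kept the call, with log2 fold changes of -1.33 to -1.08.

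Vim encodes vimentin, the intermediate filament protein of mesenchymal cells (chromosome 2, 13573927 to 13582826, plus strand). Its level was 2202, 2473 and 2807 CPM in the PBS libraries and 1432, 1323 and 1207 CPM in the rmCIRBP libraries. Here too no rmCIRBP library reached the lowest PBS library. The mean fell from 2494 ± 303 to 1321 ± 113 CPM (SD, n = 3 each), with a log2 fold change of -0.88 ± 0.15 (SE; 95% limits -1.22 to -0.55) and an adjusted p of 0.00866 by edgeR. The call held when any 1 library was left out, with log2 fold changes of -0.94 to -0.80 and a largest adjusted p of 0.0474.

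Vim and Thy1 were also among the steadier markers within a group. The pooled within-group SD of log2 CPM placed Vim at percentile 23.2 and Thy1 at percentile 56.4 of all genes tested. Dpt, Pi16, Ly6a, Npnt, Cd34 and Ly6c1 all lay above percentile 97, and Fap and S100a4 lay at percentiles 94.2 and 84.4. On a scale that allows genes to be compared with each other, CPM per kb of merged exon, Vim was the most abundant of the 10 in PBS at 526 ± 63.9 and Thy1 came next at 54.2 ± 9.04 (SD, n = 3). S100a4 (39.6 ± 14.4), Ly6a (39.2 ± 7.91) and Dpt (27.9 ± 23.8) followed in the same units, in that order. The lower levels were those of Npnt at 5.42 ± 2.81, Fap at 3.35 ± 0.429, Ly6c1 at 2.79 ± 0.440, Pi16 at 1.41 ± 1.06 and Cd34 at 0.783 ± 0.311 CPM per kb. Neighbours in this order differed by less than the larger of their SDs, except for Vim and Thy1, Thy1 and S100a4 (by a small margin), Fap and Ly6c1, and Ly6c1 and Pi16. In rmCIRBP the first place stayed with Vim at 278 ± 23.8, while Ly6a (63.6 ± 53.7) had a higher mean than S100a4 (30.2 ± 2.30), Dpt (23.3 ± 28.2) and Thy1 (22.9 ± 3.58), with an SD that spans them. The means of Npnt (9.62 ± 5.91), Ly6c1 (2.20 ± 1.61), Fap (1.40 ± 0.727), Cd34 (0.313 ± 0.220) and Pi16 (0.260 ± 0.0908) came last.

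The relatives of these genes show whether a whole family moved. Of 10 tested intermediate filament and linker genes, edgeR called 0 in either direction, with 1 higher and 0 lower at an unadjusted p under 0.05, and DESeq2 and limma voom called 0. Fold changes were below 0 for 7 of the 10, with a list median log2 fold change of -0.09. Des, Lmna and Plec, looked at after their values were seen, had the largest adjusted p, 0.953, 0.937 and 0.960 by edgeR. The smallest were those of Lmnb2 (log2 fold change 0.78, edgeR adjusted p 0.117) and Sync (-0.67, 0.175). Leaving out PBS 1 gave 1 gene higher in that list and leaving out rmCIRBP 2 gave 1 lower. For the GPI anchor that Thy1, Ly6a and Ly6c1 carry, 26 synthesis genes were tested. Of these, 1 rose (Pign, 3.85%) and 2 fell (Pigc and Pigp, 7.69%), against 6.74% and 4.77% of all genes. The list's median log2 fold change was 0.00. Pign, an enzyme that modifies the anchor's sugar core, rose from 56.7 ± 3.61 to 86.9 ± 3.84 CPM (SD, n = 3 each), a log2 fold change of 0.65 ± 0.10 with an edgeR adjusted p of 0.00555. Pigc (log2 fold change -0.47, edgeR adjusted p 0.0325) lost its call without PBS 2, PBS 3 or any 1 rmCIRBP library, with adjusted p of 0.0720 to 0.124. Pigp (log2 fold change -0.81, edgeR adjusted p 0.0381) lost it without any 1 PBS library or rmCIRBP 1, with adjusted p of 0.0573 to 0.135.

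Other genes that fibroblasts as a class express were read beside Thy1 and Vim. Of 19 such genes tested, which included fibrillar collagens, Pdgfra and Pdgfrb, 2 rose (Cd44 and Dcn) and 0 fell, with a median log2 fold change of 0.07. The count that rose was 4 without rmCIRBP 2 and 1 without PBS 2, rmCIRBP 1 or rmCIRBP 3. With edgeR at an unadjusted p under 0.05, 1 was lower, and DESeq2 and limma voom each called 0 lower. Cd44, the hyaluronan receptor, rose from 66.0 ± 2.35 to 383 ± 30.9 CPM (SD, n = 3 each), with a log2 fold change of 2.57 ± 0.12 and an edgeR adjusted p of 3.2e-05. Dcn, the collagen-binding proteoglycan decorin, stood at 104 ± 32.9 and 235 ± 47.5 CPM, with an edgeR adjusted p of 0.0261 that became 0.0846 without PBS 2, 0.0771 without rmCIRBP 1 and 0.0590 without rmCIRBP 3. Pdgfra, the PDGF receptor that marks lung fibroblasts, stood at 430 ± 16.8 and 617 ± 236 CPM (edgeR adjusted p 0.232). Col1a1, a chain of the main fibrillar collagen, stood at 10664 ± 1279 and 8791 ± 1315 CPM (edgeR adjusted p 0.429), so that this defining fibroblast gene was abundant in both groups.

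**Figure D2:**
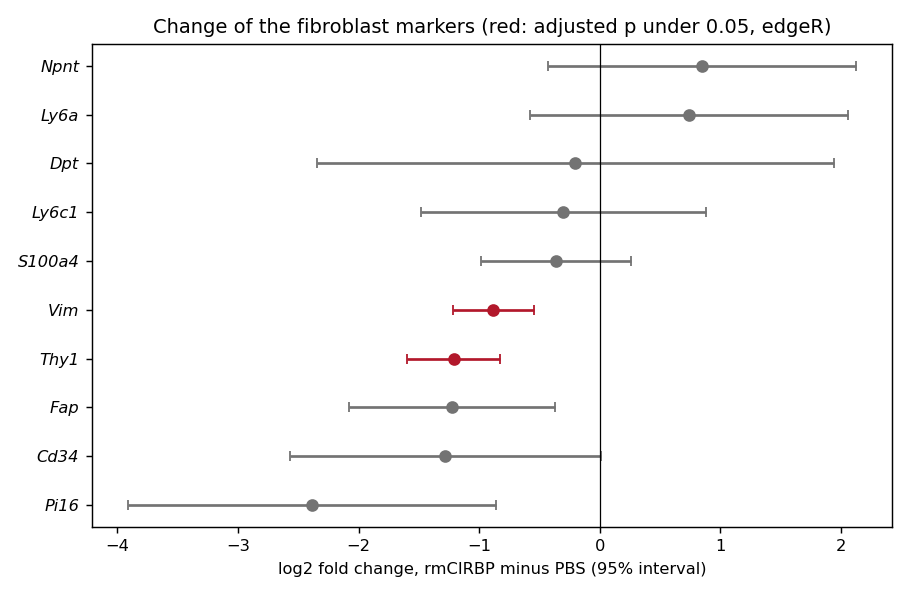
Log2 fold changes of the 10 markers, rmCIRBP against PBS, with 95% limits from the edgeR fit. The limits of Thy1, Vim, Pi16 and Fap lie wholly below 0, and only those of Thy1 and Vim belong to genes past the adjusted threshold.

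Neither the 4 adventitial markers, Dpt, Pi16, Cd34 and Ly6a, nor Ly6c1 passed the test with all 6 libraries. Dpt encodes dermatopontin, a small matrix protein that binds decorin and collagen fibrils (chromosome 1, 164796644 to 164824266, plus strand). It stood at 15.7, 34.3 and 94.1 CPM in PBS and at 18.3, 6.46 and 96.0 CPM in rmCIRBP. The highest library of each group was number 3, and the ranges covered each other almost fully. Its within-group SD was at percentile 99.99 of all genes tested, with a 14.9-fold span in rmCIRBP and a 6.00-fold span in PBS. The log2 fold change of -0.20 ± 0.93 (SE) had 95% limits of -2.34 to 1.94, so neither a fall nor a rise of 3-fold could be told from no change at this spread (edgeR adjusted p 0.908).

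Pi16 encodes a secreted CAP-family protein (peptidase inhibitor 16) that marks the adventitial and universal fibroblast state (chromosome 17, 29317680 to 29330593, plus strand). It stood at 1.97, 15.4 and 9.54 CPM in PBS and at 1.54, 1.15 and 2.29 CPM in rmCIRBP, from 24, 186 and 136 counts and from 21, 16 and 32 counts. The rmCIRBP libraries were all low, and so was PBS 1, which lay below rmCIRBP 3. The means were 8.96 ± 6.72 and 1.66 ± 0.578 CPM (SD, n = 3 each), with a log2 fold change of -2.38 ± 0.66 (SE; 95% limits -3.91 to -0.86) and an edgeR adjusted p of 0.0555. Without PBS 1 the log2 fold change was -2.84 and the edgeR adjusted p 0.00561, and DESeq2 on all 6 libraries gave 0.00151. With limma voom the adjusted p was 0.171, and edgeR gave 0.0783 to 0.185 without any 1 of the other libraries. The smallest change was -1.75, without PBS 2. An antisense gene inside Pi16, Gm46603, had 5, 71 and 32 counts in PBS and 5, 0 and 1 in rmCIRBP. No source used here gives the strand setting of the counting, so reads of the pair cannot be told apart.

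Cd34 encodes a sialomucin of the cell surface, known from blood progenitors, endothelium and adventitial fibroblasts (chromosome 1, 194938819 to 194961279, plus strand). Its CPM values were 3.53, 5.53 and 8.06 in PBS and 2.34, 0.646 and 3.86 in rmCIRBP, the lowest of these resting on 9 counts. Only rmCIRBP 3 entered the PBS range. The log2 fold change was -1.28 ± 0.56 (SE; 95% limits -2.57 to 0.01), with an edgeR adjusted p of 0.175. The antisense gene Gm16897 overlaps it, with 6, 18 and 20 counts in PBS and 8, 2 and 15 in rmCIRBP.

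Ly6a (Sca-1) and Ly6c1 (Ly-6C) encode GPI-anchored proteins of the Ly6 family and lie near each other on the minus strand of chromosome 15, at 74994877 to 74998031 and 75044018 to 75048830. Reads of such genes can be assigned to a near copy. The first 120 coding bases of Ly6c1 and of its neighbours Ly6c2 and Ly6a, from GENCODE M21 transcripts on GRCm38, are printed to show how alike they are, with capitals where the base differs from Ly6c1.
Ly6c1: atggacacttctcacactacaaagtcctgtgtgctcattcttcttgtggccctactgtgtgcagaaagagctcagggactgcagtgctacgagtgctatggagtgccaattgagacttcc
Ly6c2: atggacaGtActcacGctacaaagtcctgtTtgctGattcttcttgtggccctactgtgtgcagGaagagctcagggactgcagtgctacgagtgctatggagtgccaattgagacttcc
Ly6a: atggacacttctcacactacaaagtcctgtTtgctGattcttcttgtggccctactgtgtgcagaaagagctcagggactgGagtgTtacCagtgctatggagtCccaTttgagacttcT
Over this stretch Ly6c2 differed at 6 bases and Ly6a at 8. Over the whole coding sequence of 393 bases, Ly6c1 and Ly6c2 differed at 9 and were 97.7% identical, whereas Ly6a and Ly6c1 were 81.8% identical. Of the 50-base words in the transcripts of Ly6c1, 32.8% also occur in other genes, 21.5% in Ly6c2. For Ly6a the share was 18.97%, with 15.03% in Ly6c1. Thy1, Vim, Dpt and Npnt shared 0 such words. No source used here says how the authors treated reads that map to several genes, so the levels of Ly6a and Ly6c1 are uncertain to that extent. Ly6c2 was counted 0 times in 5 libraries and 1 time in rmCIRBP 3.

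Ly6a stood at 36.3, 53.6 and 51.9 CPM in PBS and at 60.4, 21.6 and 148 CPM in rmCIRBP. The rmCIRBP libraries held both the highest and the lowest value of the 6, a 6.84-fold span, against 1.48-fold in PBS. The log2 fold change was 0.74 ± 0.57 (SE; 95% limits -0.58 to 2.06; edgeR adjusted p 0.430), and without rmCIRBP 3 it was -0.18. Ly6c1 showed the same order of rmCIRBP libraries at a lower level, with 3.86, 5.29 and 4.91 CPM in PBS and 3.29, 1.22 and 6.57 CPM in rmCIRBP. Its log2 fold change was -0.30 ± 0.51 (SE; 95% limits -1.49 to 0.88; edgeR adjusted p 0.739), and without rmCIRBP 2 it was 0.12. Of 28 other Ly6-family genes listed, 6 were tested, of which 0 rose and 1 (Lypd1) fell. With edgeR at an unadjusted p under 0.05, 1 was higher, and DESeq2 called 1 higher and limma voom 0. Without rmCIRBP 2, edgeR called 1 higher and 2 lower in the list. Lypd1, a nicotinic receptor modulator, had a log2 fold change of -0.56 (edgeR adjusted p 0.0194, and 0.0845 without PBS 2 or 0.0888 without rmCIRBP 1). Ly6e, chosen after its values were seen as the relative of highest level, stood at 103 ± 28.4 and 246 ± 126 CPM (SD, n = 3 each; edgeR adjusted p 0.0668).

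A wider list of adventitial and universal fibroblast genes was read beside these markers. Of its 26 genes, 24 were tested. Of these, 6 fell (25.0%, against 4.77% of all genes) and 2 rose (Gfpt2 and Sfrp2, 8.33% against 6.74%). The list of peribronchial fibroblast and myofibroblast genes, described below, also had 25.0% lower. The list's median log2 fold change was -0.77. Scara5, the ferritin receptor of adventitial cells, fell from 13.3 ± 2.84 to 1.66 ± 0.963 CPM (SD, n = 3 each), a log2 fold change of -2.96 ± 0.41 with an edgeR adjusted p of 0.00404. Dpp4, the surface dipeptidase CD26, fell from 3.69 ± 0.342 to 0.600 ± 0.229 CPM, with a log2 fold change of -2.57 ± 0.35 and an edgeR adjusted p of 0.00366. The microfibril gene Mfap5 fell from 206 ± 12.5 to 104 ± 4.099 CPM, with a log2 fold change of -0.95 ± 0.10 and an edgeR adjusted p of 0.00106. These 3 calls held without any 1 library. Against them, Gfpt2, an enzyme of hexosamine synthesis, rose from 61.6 ± 11.4 to 212 ± 55.2 CPM (log2 change of 1.81 ± 0.23, adjusted p by edgeR 0.00271), also without any 1 library.

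The other adventitial calls, Cd248, Gsn and Ebf1 lower and Sfrp2 higher, were less stable. Cd248 (endosialin, edgeR adjusted p 0.0470) lost its call without PBS 2 (0.139), PBS 3 (0.152) or rmCIRBP 1 (0.115). Gsn (gelsolin, which severs actin, edgeR adjusted p 0.0436) lost it without PBS 2 (0.149), PBS 3 (0.109), rmCIRBP 1 (0.142) or rmCIRBP 2 (0.0816). For the transcription factor gene Ebf1 (edgeR adjusted p 0.0271), the values were 0.0907 without PBS 2, 0.0733 without PBS 3 and 0.0827 without rmCIRBP 1. Sfrp2, a secreted Wnt modulator (edgeR adjusted p 0.0475), lost its call without any 1 library other than rmCIRBP 2, with adjusted p of 0.0931 to 0.160, and limma voom gave 0.192. The count of list genes that fell was 7 without PBS 1, 3 without PBS 2, PBS 3 or rmCIRBP 1, 5 without rmCIRBP 2 and 9 without rmCIRBP 3, and the count that rose was 4 without rmCIRBP 2 and 1 without any other.

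**Figure D3:**
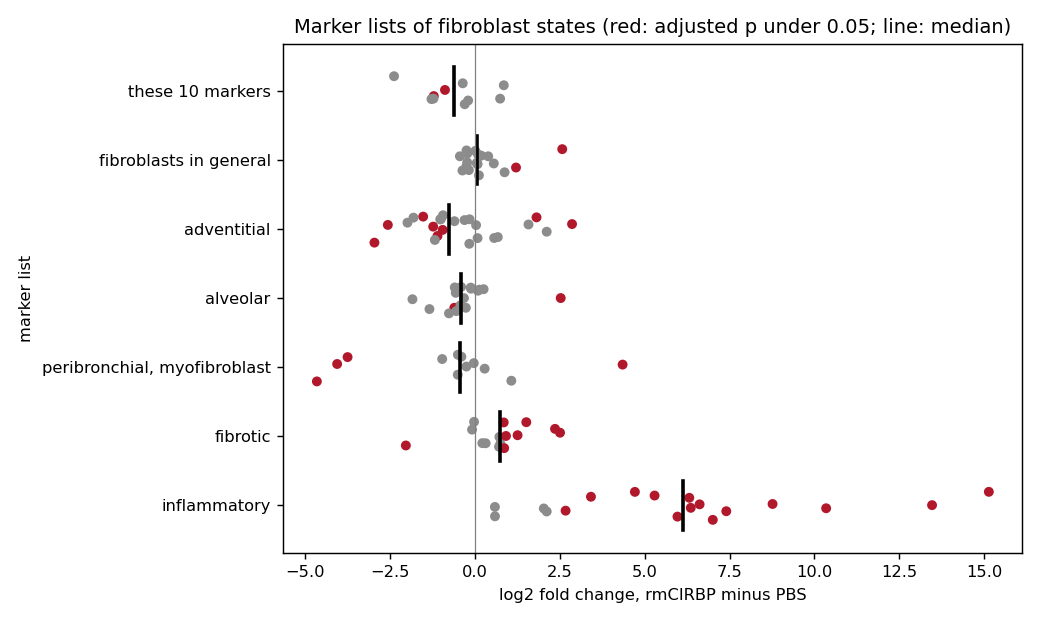
Log2 fold change, rmCIRBP against PBS, of every tested gene (1 point each) in the 10 markers and in 6 lists of fibroblast genes, with lines at the list medians and red for an adjusted p under 0.05 by edgeR. The medians of the 10 markers (-0.62) and of the adventitial (-0.77), peribronchial and myofibroblast (-0.45) and alveolar (-0.41) lists lie below 0. That of the inflammatory list is 6.14.

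Fap encodes fibroblast activation protein, a surface serine protease related to Dpp4 (chromosome 2, 62500943 to 62574075, minus strand). It stood at 19.7, 16.3 and 20.96 CPM in PBS and at 8.41, 3.59 and 11.8 CPM in rmCIRBP. All 3 rmCIRBP libraries were below all 3 PBS libraries, with rmCIRBP 2 the lowest. The means were 18.98 ± 2.43 and 7.93 ± 4.12 CPM (SD, n = 3 each), a ratio of 2.39. The log2 fold change of -1.22 ± 0.37 (SE; 95% limits -2.08 to -0.37) was as large as that of Thy1, with a wider SE, and its edgeR adjusted p was 0.0718. Without rmCIRBP 2 the log2 fold change was -0.87 with an edgeR adjusted p of 0.0387, and without rmCIRBP 3 it was -1.64 with 0.0314. Leaving out any 1 of the other 4 libraries gave edgeR adjusted p of 0.112 to 0.198. DESeq2 gave an adjusted p of 0.0115 and limma voom 0.0469. Of 7 tested Dpp and Prep genes read beside Fap, 1 fell (Dpp4) and 0 rose. With edgeR at an unadjusted p under 0.05, 3 were higher, and DESeq2 and limma voom called 0 higher.

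S100a4, also called fibroblast-specific protein FSP1, encodes a small calcium-binding protein that macrophages express too (chromosome 3, 90603771 to 90606045, plus strand). Its values were 27.6, 13.5 and 28.4 CPM in PBS and 16.5, 17.3 and 19.1 CPM in rmCIRBP. The rmCIRBP libraries were close together and lay between PBS 2 and the other PBS libraries. The log2 fold change was -0.36 ± 0.27 (SE; 95% limits -0.98 to 0.26), with an edgeR adjusted p of 0.416. A predicted protein-coding gene on the same strand, Gm42674, shares 47.4% of its 50-base words, and it was counted 0 times in all 6 libraries. A list of other S100 genes, which also held S100pbp, the gene of an S100P-binding protein, had 8 tested genes, all 8 with fold changes below 0, of which 2 fell. S100a10, the annexin A2 partner, fell from 202 ± 11.02 to 113 ± 1.54 CPM (SD, n = 3 each), with a log2 fold change of -0.80 ± 0.10 and an edgeR adjusted p of 0.00262. S100a6, or calcyclin, stood at 912 ± 175 and 475 ± 72.3 CPM, and its edgeR adjusted p of 0.0197 became 0.0876 without PBS 2, 0.0781 without rmCIRBP 1 and 0.0514 without rmCIRBP 3. None rose in edgeR (0 at an unadjusted p under 0.05, and 0 with DESeq2 or limma voom), but without PBS 1 edgeR called 1 higher and 3 lower.

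Among 15 tested genes known from fibrotic, matrix-depositing fibroblasts, 7 rose and 1 fell, with a median log2 fold change of 0.75. Timp1, an inhibitor of matrix metalloproteinases, rose by 2.51 on the log2 scale (edgeR adjusted p 0.000673), and Runx1, a transcription factor gene, rose from 13.2 ± 5.07 to 66.0 ± 3.63 CPM (SD, n = 3 each; edgeR adjusted p 0.00207). Cthrc1, the defining gene of collagen-producing cells in injured lung, fell from 81.2 ± 19.6 to 19.3 ± 4.62 CPM (log2 change of -2.04, adjusted p by edgeR 0.00146). These 3 calls held without any 1 library, whereas the count that rose was 5 without PBS 2 or rmCIRBP 1 and 4 without PBS 3. Of 18 genes of inflammatory fibroblasts, 14 rose and 0 fell, among them Saa3, an acute-phase protein gene, which rose from 0.161 ± 0.0883 to 1827 ± 350 CPM (SD, 3 libraries each; edgeR adjusted p 4.8e-06). Ccl2 and Ccl7, whose proteins attract monocytes, rose by 7.40 and 6.36 on the log2 scale (adjusted p by edgeR 1.0e-05 and 1.5e-05). With edgeR at an unadjusted p under 0.05, 0 were lower in that list, and DESeq2 and limma voom called 0 lower.

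Npnt encodes nephronectin, a basement membrane protein that binds integrin alpha8 beta1 (chromosome 3, 132881745 to 132950291, minus strand). It stood at 42.9, 23.5 and 15.4 CPM in PBS and at 56.7, 73.0 and 15.4 CPM in rmCIRBP. Library 3 of each group held the lowest value, and rmCIRBP 1 and 2 were above all PBS libraries. The means were 27.2 ± 14.1 and 48.4 ± 29.7 CPM (SD, n = 3 each), with a log2 fold change of 0.85 ± 0.55 (SE; 95% limits -0.43 to 2.13) and an edgeR adjusted p of 0.350. The alpha chain of its receptor, Itga8, chosen here after its values were seen, stood at 398 ± 96.8 and 154 ± 87.5 CPM, with a log2 fold change of -1.34 ± 0.37 and an edgeR adjusted p of 0.0553. Of 5 tested genes of this receptor and its partners, 1 rose and 1 fell. Fras1, a basement membrane protein, fell from 34.1 ± 6.57 to 12.4 ± 2.84 CPM (SD, 3 libraries each; log2 change of -1.42, adjusted p by edgeR 0.00525). Gdnf, a growth factor gene that acts downstream of nephronectin in the kidney, rose from 1.46 ± 0.484 to 7.81 ± 0.752 CPM (log2 change of 2.44, adjusted p by edgeR 0.00222). Both calls held without any 1 library, and without rmCIRBP 2 the count that fell was 2.

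Of 24 genes listed for alveolar fibroblasts 17 were tested, and 1 rose (Ces1d) and 1 fell (Spon1), 5.88% each. The shares of all genes were 6.74% and 4.77%, and the list's median log2 fold change was -0.41. At an unadjusted p under 0.05 edgeR had 1 higher and 4 lower. DESeq2 called 1 higher and 3 lower, and limma voom 0 higher and 2 lower. Spon1, a matrix protein, had a log2 fold change of -0.61 (edgeR adjusted p 0.0266) and lost its call without PBS 2, PBS 3 or any 1 rmCIRBP library (0.0582 to 0.0977). Ces1d, a carboxylesterase, had a log2 fold change of 2.53 (edgeR adjusted p 0.0456) and lost it without any 1 library other than rmCIRBP 2 (0.0774 to 0.161). The count that fell was 3 without rmCIRBP 2 and 2 without rmCIRBP 3. Of 12 tested genes of peribronchial fibroblasts and myofibroblasts, 1 rose (8.33%, against 6.74% of all genes) and 3 fell (25.0%, against 4.77%). Their median log2 fold change was -0.45. Fgf18, a growth factor gene of alveolar myofibroblasts, fell from 46.6 ± 13.02 to 2.71 ± 0.994 CPM (SD, 3 libraries each; log2 change of -4.06 ± 0.30, adjusted p by edgeR 0.000253), also without any 1 library. Lgr6, an R-spondin receptor gene at 5.20 ± 4.29 and 0.193 ± 0.0431 CPM (edgeR adjusted p 0.0119), lost its call without rmCIRBP 1 (0.0538). Stc1, a secreted glycoprotein (-3.75, edgeR adjusted p 0.0128), lost it without PBS 2 (0.0546) or rmCIRBP 1 (0.0616), and Enpp2, or autotaxin (4.35, edgeR adjusted p 0.0110), without PBS 2 (0.0609) or PBS 3 (0.0557).

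Relatives of Cd34 and Pi16 were read in the same way. Of 5 tested genes of sialomucins and selectins related to Cd34, 3 rose and 0 fell. Selp and Sele, which encode P- and E-selectin and are known from activated endothelium, rose (edgeR adjusted p 0.000806 and 0.00320), from means of 0.469 ± 0.413 and 0.176 ± 0.0996 to 26.5 ± 11.5 and 15.4 ± 12.2 CPM (SD, n = 3 each). Both calls held without any 1 library, whereas Podxl (edgeR adjusted p 0.0243), the podocalyxin gene, lost its call without PBS 1 (0.0556), PBS 2 (0.101), rmCIRBP 1 (0.0855) or rmCIRBP 3 (0.0673). With edgeR at an unadjusted p under 0.05, 0 were lower in this list, and DESeq2 and limma voom called 0 lower. Of 5 tested CAP-family relatives of Pi16, 1 fell, Crispld2 (log2 fold change -1.33, edgeR adjusted p 0.0358), and it lost its call without any 1 library other than rmCIRBP 2 (0.0596 to 0.123).

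Dpt, Pi16, Cd34, Ly6a, Ly6c1 and Fap shared an order among the 3 rmCIRBP libraries that the treatment labels do not carry. Measured as log2 CPM minus the mean of the library's own group, rmCIRBP 2 was at -1.75 for Dpt, -1.09 for Cd34, -1.41 for Ly6a, -1.07 for Ly6c1, -0.91 for Fap and -0.36 for Pi16. In rmCIRBP 3 the same 6 genes were at 2.07, 0.87, 1.36, 1.00, 0.70 and 0.42. Npnt had the opposite order, at 0.85 in rmCIRBP 2 and -1.33 in rmCIRBP 3. PBS 1 lay low for Dpt (-1.19), Pi16 (-1.54), Cd34 (-0.53), Ly6a (-0.32) and Ly6c1 (-0.21) and high for Npnt (0.80). Fap differed, at 0.09 in PBS 1 and lowest in PBS 2 (-0.22). Thus 6 of the 10 markers had their lowest rmCIRBP value in rmCIRBP 2, against 39.2% of all genes tested, and 8 had their highest in rmCIRBP 3, against 32.5%. Of the 24 tested adventitial genes, 70.8% were lowest in rmCIRBP 2 within their group and 62.5% were highest in rmCIRBP 3. In PBS, 6 of the 10 markers and 70.8% of the adventitial genes were lowest in PBS 1, against 42.8% of all genes tested.

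**Figure D4:**
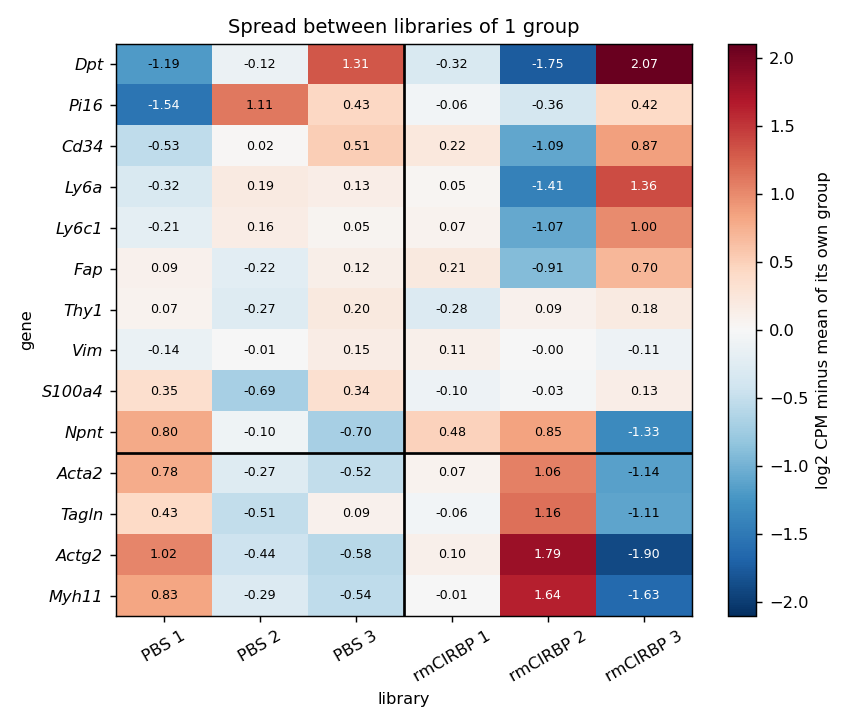
Heat map of log2 CPM (with 0.5 added) of each marker (rows above the line) and of 4 contractile genes (rows below it) in every library (columns), as the difference from the mean of that library's own group, from blue (lower) to red (higher). Dpt, Cd34, Ly6a, Ly6c1 and Fap are low in rmCIRBP 2 and high in rmCIRBP 3, and Npnt and the contractile genes show the opposite order.

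Smooth muscle genes varied with the same libraries. Acta2, the smooth muscle actin gene that myofibroblasts also express, stood at 2687, 1333 and 1131 CPM in PBS and at 3137, 6233 and 1328 CPM in rmCIRBP. All 9 tested smooth muscle markers had their highest rmCIRBP value in rmCIRBP 2, against 39.3% of all genes tested, and their summed level was 5415, 2797 and 2929 CPM in PBS and 4727, 10136 and 2009 CPM in rmCIRBP. Of these 9, edgeR called 0 in either direction (0 at an unadjusted p under 0.05, and 0 with DESeq2 or limma voom). Thus the libraries high in contractile genes, PBS 1 and rmCIRBP 2, were those low in Dpt and Cd34, and the part of this in the marker results was not tested. With PBS 1 and rmCIRBP 2 left out together, a choice made after seeing the data, 4 of the 10 markers fell, namely Thy1, Vim, Pi16 (log2 fold change -2.63, edgeR adjusted p 0.00289) and Fap (-0.82, edgeR adjusted p 0.0446). Calls over the whole table also rose in that setting, to 2802 genes from 1818 with all 6 libraries.

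**Figure D5:**
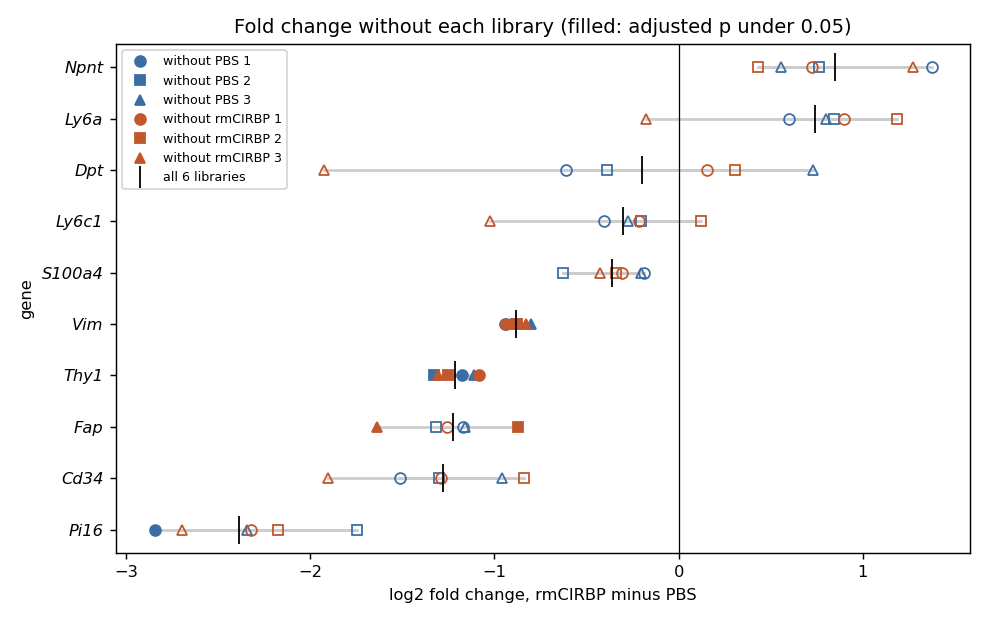
Log2 fold change of each marker with all 6 libraries and with each library left out in turn (1 symbol per omitted library, filled where the edgeR adjusted p was under 0.05, and a tick for all 6 libraries). Thy1 and Vim stayed between -1.33 and -0.80 throughout, whereas Dpt ran from -1.92 to 0.73.

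Transcripts of other lung cells were read from lists of their markers, of which 2 of 13 epithelial, 5 of 12 endothelial, 10 of 14 haematopoietic, 7 of 9 pericyte and 5 of 10 mesothelial genes passed the filter on low counts. Epithelial markers summed to 4.19 to 8.92 CPM in PBS and 3.73 to 7.90 CPM in rmCIRBP, mostly Ager and Hopx, and Sftpa1, Krt8, Nkx2-1 and Cldn18 had 0 counts. Endothelial markers summed to 20.7 to 30.5 CPM in PBS and 7.78 to 9.14 CPM in rmCIRBP, with Tie1, Cldn5 and Emcn at 0 counts. Most of that sum was Kdr, the VEGF receptor, which fell from 14.1 ± 2.99 to 1.23 ± 0.382 CPM (SD, n = 3 each; edgeR adjusted p 0.000472), and the angiopoietin receptor gene Tek (edgeR adjusted p 0.0266), which lost its call without PBS 2, PBS 3 or any 1 rmCIRBP library (0.0524 to 0.0997). The other 3 tested endothelial genes were not called, namely Vwf, Erg and Egfl7. Their log2 fold changes were 0.63, -0.50 and -0.14 (edgeR adjusted p 0.531, 0.587 and 0.916). Pecam1 and Cdh5 did not pass the filter on low counts. Cd34 is also an endothelial gene, and the part of the fall of Kdr and Tek in its value was not tested. Haematopoietic markers, of interest because S100a4 is expressed by macrophages, summed to 124 to 165 CPM in PBS and 80.6 to 154 CPM in rmCIRBP, most of it Lyz2 (110 ± 17.3 and 73.6 ± 26.3 CPM, edgeR adjusted p 0.199), with Cd3e at 0 counts. Of 10 tested haematopoietic markers, 2 rose and 0 fell, and 4 had fold changes below 0. With edgeR at an unadjusted p under 0.05, 3 were higher and 1 lower. The lower gene was Tyrobp, at 3.09 CPM in PBS and 1.16 CPM in rmCIRBP (edgeR adjusted p 0.117). Cd68 stood at 7.18 and 5.31 CPM (edgeR adjusted p 0.444). The 2 that rose are both known from macrophages. Adgre1, which encodes F4/80, rose from 1.64 ± 0.226 to 8.89 ± 3.33 CPM (SD, 3 libraries each; edgeR adjusted p 0.00440), and Marco, a scavenger receptor gene, rose from 0.203 ± 0.0668 to 9.71 ± 4.25 CPM (edgeR adjusted p 0.000543). Both calls held without any 1 library, and their part in the S100a4 values was not tested. Pericyte markers, with Mcam the most abundant in PBS, summed to 65.1 to 80.6 CPM in PBS and 66.5 to 93.8 CPM in rmCIRBP, with Higd1b at 0 counts. Of 7 tested, Pdzd2 and Ndufa4l2 rose (edgeR adjusted p 0.0117 and 0.0246) and Cspg4, which encodes NG2, fell (0.0180). Pdzd2 lost its call without PBS 2 (0.0512), Cspg4 without PBS 2 (0.0575) or rmCIRBP 3 (0.0504), and Ndufa4l2 without PBS 2, PBS 3, rmCIRBP 1 or rmCIRBP 3 (0.0569 to 0.0915). Mesothelial markers summed to 13.5 to 19.2 CPM in PBS and 12.6 to 15.3 CPM in rmCIRBP. Msln was the most abundant of them in PBS, at 5.35 ± 1.92 CPM. Upk3b fell from 4.86 ± 1.15 to 0.958 ± 0.721 CPM (edgeR adjusted p 0.0283) and Rspo1 rose from 1.29 ± 0.339 to 6.28 ± 4.27 CPM (edgeR adjusted p 0.0337). Both lost their calls without any 1 library other than rmCIRBP 2, with adjusted p of 0.0596 to 0.0928 and 0.0620 to 0.129.

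For each marker with a mean of at least 10 CPM, the gene with the most similar profile was sought among 10094 genes, by Pearson's r of log2 CPM over the 6 libraries. The closest were Gucy1a2 for Thy1 (r = 0.996), Npc1 for Vim (0.999), Galk2 for Dpt (0.990), Itm2b for Ly6a (0.983), Psd3 for Fap (0.996), Srp14 for S100a4 (0.982) and Rccd1 for Npnt (0.978). These are the best of many genes over few points that share libraries and treatment, and they describe a likeness of profile alone. Itm2b, for example, stood at 536 CPM in rmCIRBP 2 and 1005 CPM in rmCIRBP 3, the same order as Ly6a. Psd3 stood at 108, 101 and 110 CPM in PBS and at 71.2, 42.9 and 78.6 CPM in rmCIRBP, lowest like Fap in rmCIRBP 2.

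The promoter sequences of Dpt, Cd34 and Npnt are shown, each the 250 bases before the RefSeq start (GRCm38.p6, 5′ to 3′ on the gene's strand). They were picked after their library values were seen. A link between these sequences and the order of the libraries was not tested. Dpt is at chr1:164796413-164796662 on the plus strand, with 19 bases inside an annotated exon, and Cd34 at chr1:194938571-194938820 on the plus strand, with 2. Npnt is at chr3:132950292-132950541 on the minus strand. Capitals mark matches to 7 motifs searched on both strands.
Dpt: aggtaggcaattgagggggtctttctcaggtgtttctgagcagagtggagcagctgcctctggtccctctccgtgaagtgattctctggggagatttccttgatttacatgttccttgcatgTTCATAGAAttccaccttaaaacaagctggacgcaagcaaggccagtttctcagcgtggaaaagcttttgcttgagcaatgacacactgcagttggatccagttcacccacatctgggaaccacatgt
Cd34: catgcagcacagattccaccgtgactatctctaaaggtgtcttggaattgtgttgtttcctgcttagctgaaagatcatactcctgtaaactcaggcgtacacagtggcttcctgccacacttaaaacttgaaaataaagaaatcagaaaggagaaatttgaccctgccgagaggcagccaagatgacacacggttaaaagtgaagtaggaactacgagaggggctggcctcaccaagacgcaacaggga
Npnt: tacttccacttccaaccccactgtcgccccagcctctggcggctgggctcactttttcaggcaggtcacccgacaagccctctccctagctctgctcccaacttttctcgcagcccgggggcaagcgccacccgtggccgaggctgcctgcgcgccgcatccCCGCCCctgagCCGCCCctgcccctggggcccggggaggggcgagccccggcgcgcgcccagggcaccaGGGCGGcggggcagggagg
The Dpt window held 1 STAT-type GAS element (TTCNNNGAA), a motif present in 7.02% of 32851 RefSeq promoters of the same length. The Cd34 window held 0 of the 7 motifs. The Npnt window held 3 GC boxes (GGGCGG), present in 32.7% of promoters, and its GC content of 74.0% lay at percentile 95.3. GC content was 48.8% for Dpt and 46.4% for Cd34, against a median of 52.4%. The other motifs were the TATA box (TATAAA, in 12.4% of promoters), the CCAAT box (CCAAT, 33.8%), the NF-kappaB site (7.25%), the AP-1 site (TGANTCA, 6.75%) and the interferon-stimulated response element (2.98%). The S100a4 window held 1 TATA box. The Ly6c1 window at its first listed start held 1 TATA box and 1 CCAAT box, and that at its second start held 0 motifs. A second Npnt start had 1 NF-kappaB site. The Vim window held 3 matches to the NF-kappaB site, 2 of which overlap with a shift of 1 base. It also held 2 CCAAT boxes and 1 TATA box, and the Pi16 window held 1 CCAAT box. Both of these windows lie wholly inside annotated exons of the gene and are not printed. A match is a description of letters in the window. Of the 10 genes, 7 had a promoter entry, and Thy1, Ly6a and Fap did not.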

How the data were processed

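The authors deposited 1 table of raw read counts per gene for the 6 libraries. Reads were assigned to genes of GRCm38 (mm10) with featureCounts, per the submitters' processing notes, which also name DESeq2 and R 4.1.2. Not given in the sources used here are the aligner, annotation release, strand setting and treatment of reads mapping to several genes. Columns were matched to samples by group and number in their names, leaving 0 without a sample, and 0 lines named no gene.

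The counts were tested with edgeR 4.0.16 under R 4.3.3: filterByExpr, TMM scaling, a quasi-likelihood F test of rmCIRBP against PBS, two-sided, and Benjamini-Hochberg adjustment over 15801 genes at 0.05. Printed CPM are counts divided by the library total, and fold changes are TMM-scaled. The log2 CPM behind the within-group SDs and the deviations from group means were TMM-scaled too. Standard errors were derived from each fold change and F value. Depth was 12105584 to 14262375 counts per library. The 10 markers, the lists and the rule for named genes (all markers, up to 3 called genes per list with the smallest p, relatives of a marker, the most similar gene, and up to 2 abundant markers of each other cell type) were chosen with earlier results of these data known. Where a list had few called genes, the rest were named after their values were seen.

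Alternatives were other scalings and filters, DESeq2 1.42.0, limma voom 3.58.1, a robust fit, a replicate block, leaving out each library, other thresholds and protein-coding genes alone. The scripts were tested on simulated counts. Gene models were those of GENCODE M21, in which all 10 markers had the same position, and promoters those of RefSeq (GRCm38.p6), handled with Python 3.11.15. No 2 libraries agreed within sampling noise. The result of 1 list of other-cell markers is not reported here.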

Additional observations from a re-analysis of the deposited data

How the results depend on the processing

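Thy1 and Vim fell under every alternative run. Over all alternatives, the 10 markers gave 170 values with the same direction and call as reported, 14 that became calls, 6 that changed sign and 0 that lost a call. The signs that changed were those of Dpt (0.73 without PBS 3, 0.15 without rmCIRBP 1 and 0.31 without rmCIRBP 2, over a leave-one-out range of -1.92 to 0.73), Ly6c1 (0.12 without rmCIRBP 2, over a range of -1.03 to 0.12, and 0.015 without PBS 1 and rmCIRBP 2) and Ly6a (-0.18 without rmCIRBP 3, over a range of -0.18 to 1.19). The count of markers called was 4, with Pi16 and Fap added, with no filter on low counts, with DESeq2, at an adjusted p of 0.1, and with PBS 1 and rmCIRBP 2 left out together, and it was 2 to 3 with any 1 library left out. Upper quartile scaling also called Pi16 (adjusted p 0.0492, edgeR).

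Genes called over the whole table numbered 723 to 2144 with any 1 library left out, including 723 without PBS 2, 863 without PBS 3 and 742 without rmCIRBP 1. They numbered 608 at an adjusted p of 0.01, 3066 at 0.1 and 2802 with PBS 1 and rmCIRBP 2 left out together, an alternative chosen after seeing the data. With no filter on low counts they numbered 2607, and with DESeq2 2618, against 1818 as reported. Upper quartile scaling called 925 higher and 1022 lower, against 1065 and 753 as reported. For list genes, 1013 values kept their call and 144 lost it; the cause was not tested.

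The replicate number as a block gave 1258 genes and 3 markers, Fap being added (adjusted p 0.0388, edgeR). Libraries of the same number correlated at -0.13, -0.19 and 0.27 in their deviations from the group means over genes, so the numbers were not taken as pairs, and not every library correlated best with its own number: PBS 1 and rmCIRBP 2 gave 0.39.

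Pi16, Cd34 and Ly6c1 rested on 9 to 186 counts per library.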
